A study of Mus musculus with 2 samples.

Results

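The Krüppel-like factors (KLFs) described here are the products of 10 genes, Klf2, Klf3, Klf4, Klf6, Klf9, Klf10, Klf11, Klf12, Klf13 and Klf15. They were found as the probe sets that the platform annotation assigns to these symbols, 33 of 45101 probe sets and 10 of 18193 genes with a probe set. Their transcripts were compared in liver RNA of mice homozygous for a floxed Lpcat3 allele, with and without Albumin-Cre, a transgene whose albumin promoter drives Cre in hepatocytes. The control group was Lpcat3fl/fl and the other was Lpcat3fl/fl Albumin-Cre, called L-Lpcat3 KO. Both carried the floxed allele, whose loxP sites lie in introns 2 and 3, and only the second carried the transgene. All mice were males put on a western diet at 7 weeks of age and kept on it for 9 weeks. Their livers were taken at 16 weeks after a 6 hr fast. Each genotype was 1 Affymetrix array of RNA pooled from 5 mice.

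KLFs are transcription factors that bind CACCC and GC-rich elements through C2H2 zinc fingers at the C terminus, which they share with the Sp factors. Their N-terminal parts differ. Klf2, Klf4 and Klf6 carry activation domains, Klf3 and Klf12 recruit the corepressor CtBP, and Klf9, Klf10, Klf11 and Klf13 can recruit Sin3A. In liver, Klf15 is known for its part in amino acid catabolism and gluconeogenesis during fasting, Klf9 as a glucocorticoid-induced gene, Klf6 as an early-response gene found in activated stellate cells, and Klf2 and Klf4 as regulators of endothelium.

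Each genotype was a single pool, so the genotypes could not be tested against each other and no difference below has a replicate check on these arrays. The paper also measured selected genes by real-time PCR in western diet livers with several mice per group, which was not used here. The values are linear MAS5 signals. A value below 86.6, the median of all deposited values, was raised to that floor, and where a gene had several measured probe sets, the one with the highest mean log2 signal over both arrays stood for it. A gene or probe set counted as measured when either array or both reached the floor, and was called when it differed by at least 2-fold. Ratios are L-Lpcat3 KO over control on the log2 scale throughout. Log2 ratios of different probe sets for the same gene had a pooled SD of 0.29 (4476 genes, both arrays at or above the floor). This SD describes how far probe sets on the same arrays differ, and not the spread between arrays or mice. Lpcat3 itself read 5173 in the control pool and 2198 in the L-Lpcat3 KO pool (log2 ratio -1.23), on a probe set whose place relative to the floxed part is unknown here. Of 8 measured hepatocyte markers none was called, and their median log2 ratio was -0.17. Of these, 7 were below 0 and 1, Alb (32117 and 33219), was above. In bulk RNA, fewer cells of a type and less RNA per cell cannot be told apart.

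All 10 KLF genes were measured, through 27 of their 33 probe sets. One gene, Klf6, passed 2-fold upward in L-Lpcat3 KO liver, and no KLF gene passed it downward. Over all 12320 measured genes, 2.69% passed 2-fold upward and 0.698% downward. A single call among 10 genes is too few to read against that background as a property of the family. Of the 10 genes, 8 lay within 1.5-fold, and the remaining gene, Klf15, was 1.58-fold lower. The median log2 ratio of the 10 genes was 0.07, against 0.01 for all measured genes, with 6 genes above 0 and 4 below (51.2% and 48.7% of all measured genes). Among these 10 genes the ratios ran from -0.66 for Klf15 to 1.46 for Klf6.

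**Figure D1:**
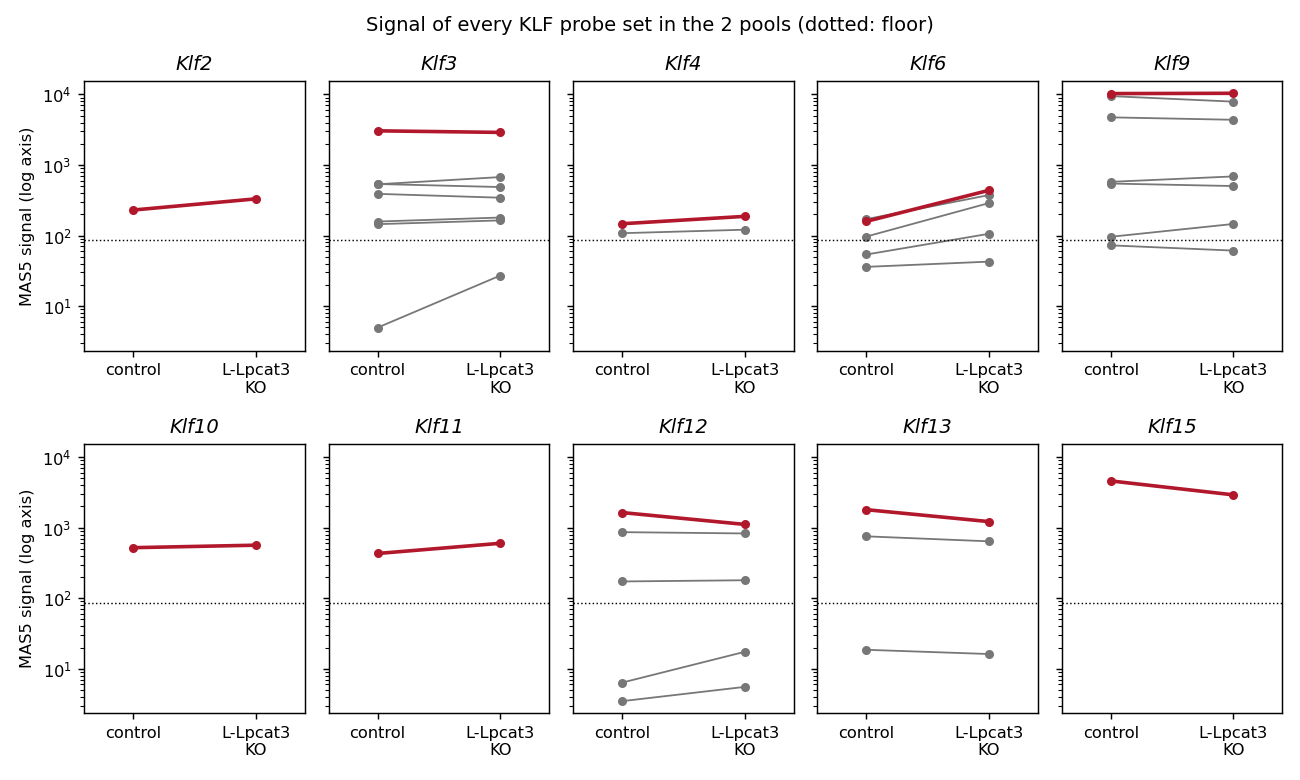
Signal of each of the 33 KLF probe sets (log y axis) in the control and the L-Lpcat3 KO pool, 1 panel per gene. Red lines are the probe sets that represent each gene and grey lines the others. Dotted lines mark the floor of 86.6. The lines of Klf6 rise, from 159 to 438 on the red line, and those of Klf9, Klf10 and Klf3 are close to level on their red lines.

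Among the KLFs with activation domains, Klf6 was the member that moved most. The probe set that represents it, 1433508_at, read 159 in the control pool and 438 in the L-Lpcat3 KO pool, a 2.75-fold difference (log2 ratio 1.46). The 1427742_a_at probe set gave 171 and 375 (1.13), and 1447448_s_at gave 96.9 and 289 (1.57). So 3 of the 5 Klf6 probe sets were called, with an SD of 0.23 among their log2 ratios. No KLF probe set was called lower. Over all measured probe sets, 2.26% were called higher and 0.785% lower. The 1418280_at probe set was below the floor in the control pool (53.9) and above it in the L-Lpcat3 KO pool (106), so that its log2 ratio is at least 0.30. The fifth, 1459718_x_at, was below the floor on both arrays (36 and 42.7), although it was designed from the same target sequence as 1447448_s_at. These probe sets share the Klf6 transcript and the same RNA, so they are repeated readings of 1 pool and not replicates of the genotype.

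Only 84 of the 12320 measured genes, 0.682%, had a higher ratio than Klf6. Its control signal was near the floor, among the 4107 measured genes of lowest signal, where calls were more frequent. Of those 4107 genes 4.7% were called higher, against 0.998% of the 4107 genes of highest signal. With the floor at the 75th percentile (405), the control value of Klf6 was raised to the floor and the log2 ratio of the gene became at least 0.11, below the 2-fold threshold.

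The promoter of Klf6 is shown as that of the one called member, chosen after its value was seen. These are the 250 bases before the transcription start of the RefSeq table, at chr13:5861239-5861488 of GRCm38.p6 on the plus strand. Capitals mark the E-box CACGTG and the CCAAT box, which reads ATTGG on the other strand.
Klf6: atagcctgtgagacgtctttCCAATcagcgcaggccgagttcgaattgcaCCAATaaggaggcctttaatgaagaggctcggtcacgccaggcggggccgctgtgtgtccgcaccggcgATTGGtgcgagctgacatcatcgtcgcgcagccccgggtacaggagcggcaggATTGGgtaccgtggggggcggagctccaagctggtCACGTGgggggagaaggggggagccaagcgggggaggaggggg
The window held CCAAT boxes at 4 places, the first starting 230 and the last 78 bases before the start, and a single CACGTG that began 43 bases before it. CCAAT was present on either strand in 33.8% of the 32851 mouse promoter windows of this length and CACGTG in 6.02%. The window of Klf6 held no CACCC, the element that KLFs bind, on either strand, and 1 GC box (CCGCCC, on the minus strand). CACCC was found in 52% of all windows and the GC box in 32.7%. The CArG box, bound by serum response factor at many early-response genes, was in none of the 9 KLF windows searched and in 1.47% of all windows.

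Klf2 and Klf4, also activators and known for their part in quiescent endothelium, were higher by less. Klf2 had a single probe set, which read 230 in the control pool and 331 in the L-Lpcat3 KO pool (log2 ratio 0.52). Of all measured genes, 10.9% had a higher ratio. Klf4 had 2 probe sets designed from the same target sequence, both near the floor. They gave 147 and 187 (0.35) and 108 and 121 (0.16). The mean of these Klf4 ratios, 0.25, was smaller than the spread of 0.29 between probe sets for the same gene. The endothelial genes known to be controlled by these factors did not move together. Nos3, endothelial nitric oxide synthase, was at 244 and 299 (0.29) and Thbd, thrombomodulin, at 297 and 343 (0.21). The sphingosine phosphate receptor gene S1pr1 was at 862 and 587 (-0.55), and Tek, the angiopoietin receptor gene, at 271 and 392 (0.53). Vcam1, an adhesion molecule gene that Klf2 and Klf4 are known to restrain, was called (523 and 1285, 1.30), but its 3 probe sets ran from -0.06 to 1.30. Of the 5 measured genes of this list 1 was called higher, against 2.69% of all measured genes. The list median was 0.29, and Edn1 and Sele were below the floor on both arrays.

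**Figure D2:**
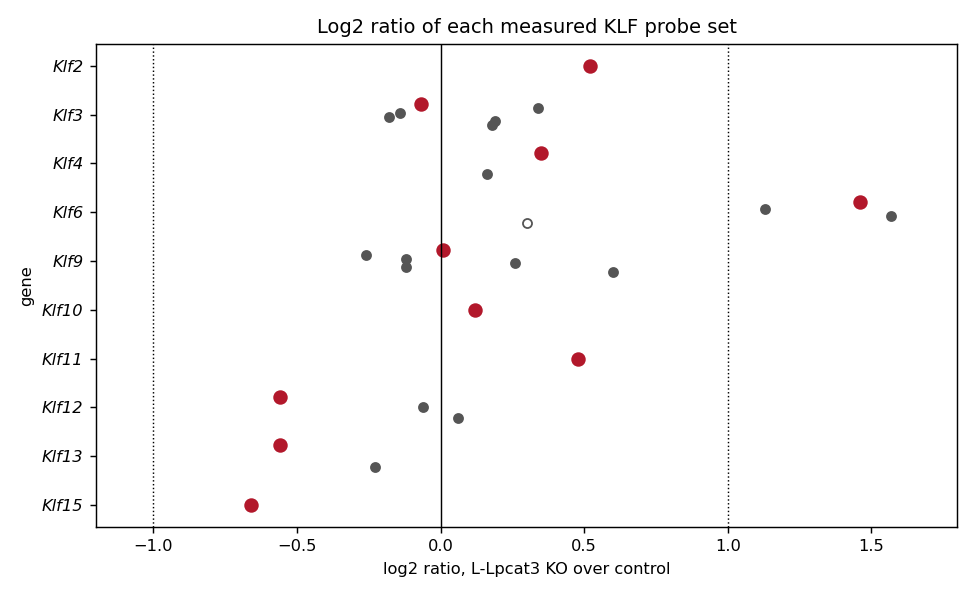
Log2 ratio (L-Lpcat3 KO to control, x axis) for the 27 measured KLF probe sets, grouped by gene. Red points represent their gene, grey points are its other probe sets, the open point is a lower bound with the control value below the floor, and dotted lines mark 2-fold. Only Klf6 probe sets lie beyond 2-fold, between 1.13 and 1.57, whereas Klf3, Klf9 and Klf12 have points on both sides of 0.

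The CtBP-recruiting repressors Klf3 and Klf12 had many probe sets with differing ratios. Klf3, a repressor known from adipocytes and B cells, had 7 probe sets, of which 6 were measured. Its strongest, 1454666_at, gave 3050 in the control pool and 2897 in the L-Lpcat3 KO pool (-0.07). The next gave 533 and 674 (0.34), and the others of Klf3 ran from -0.18 to 0.19. With 3 probe sets above 0, 3 below and an SD of 0.21, no direction can be given for Klf3.

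Klf12, a repressor of the AP-2alpha gene, was represented by 1455521_at, with 1639 and 1114 (log2 ratio -0.56, 1.47-fold lower). Of all measured genes, 4.33% had a lower ratio. The other measured probe sets of Klf12, designed from a second target sequence that they share, gave 865 and 829 (-0.06) and 173 and 180 (0.06). The lower value of Klf12 thus rests on 1 of its 3 measured probe sets, and their mean log2 ratio was -0.19. Another 2 Klf12 probe sets were below the floor on both arrays.

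The Sin3A-recruiting members Klf9, Klf10, Klf11 and Klf13 spread from -0.56 to 0.48. Klf9, a glucocorticoid and thyroid hormone response gene, was read by 7 probe sets. The strongest, 1456341_a_at, gave 10283 and 10383 (log2 ratio 0.01). The next strongest of Klf9 gave 9468 and 7906 (-0.26) and 4736 and 4373 (-0.12), and share a target sequence. The weaker ones gave 577 and 689 (0.26), 546 and 503 (-0.12), and 96.1 and 146 (0.60), the last near the floor. Among the 6 measured probe sets of Klf9, 3 were above 0 and 3 below with an SD of 0.32, and the 3 strongest lay within 0.26 of 0.

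Klf10 and Klf11 are TGF-beta inducible early genes, and each had 1 probe set. Klf10 had signals of 521 and 565, a log2 ratio of 0.12, which is smaller than the spread of 0.29 named above. Klf11 had 431 and 601, a log2 ratio of 0.48 (1.39-fold), and 12.4% of all measured genes had a higher ratio. Klf13, known as an activator of Ccl5 in T cells, was lower on both measured probe sets. They gave 1799 and 1220 (-0.56) and 754 and 641 (-0.23), and the last was below the floor (18.6 and 16.2). Of all measured genes, 4.27% had a lower ratio than Klf13.

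Klf15 had the lowest ratio of the 10 genes. Its single probe set, 1448181_at, read 4599 in the control pool and 2919 in the L-Lpcat3 KO pool (log2 ratio -0.66). Of the 10 genes Klf15 was the one at least 1.5-fold lower, a threshold passed by 3.82% of all measured genes, and 363 genes (2.95%) had a lower ratio. At the 1.5-fold threshold Klf6 was the one of the 10 that was higher, against 9.07% of all measured genes. Counted by probe set, 4 of the 27 measured probe sets for these genes were at least 1.5-fold higher, 3 of Klf6 and the weakest measured one of Klf9, and 1 was lower, against 8.09% and 4.73% of all measured probe sets. The signal of Klf15 was far above the floor, but no second probe set of Klf15 was on the array to repeat the reading.

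The promoter of Klf15 is shown as that of the gene with the lowest ratio among the 10, also chosen after its value was seen. It gives the 250 bases before the start in the RefSeq table, at chr6:90462326-90462575 of GRCm38.p6 on the plus strand, with CACGTG and CCAAT in capitals as for Klf6.
Klf15: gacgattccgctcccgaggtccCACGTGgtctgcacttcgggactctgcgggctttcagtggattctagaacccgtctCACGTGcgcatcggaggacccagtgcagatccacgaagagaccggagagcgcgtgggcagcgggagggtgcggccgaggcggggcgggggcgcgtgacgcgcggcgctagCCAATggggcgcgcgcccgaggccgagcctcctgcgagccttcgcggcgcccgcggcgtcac
This window held 2 copies of CACGTG, which began 228 and 172 bases before the start, 1 CCAAT box, 1 CACCC on the minus strand and 1 GC box. It also held TGACG, the core of the cyclic AMP response element, at 2 places on either strand. TGACG was found in 17.8% of all windows and in 6 of the 9 KLF windows searched. Those were the windows of Klf2, Klf4, Klf9, Klf12, Klf13 and Klf15. CACGTG was present in 4 of the 9 windows searched among the 10 genes, those of Klf4, Klf6, Klf11 and Klf15, whose log2 ratios were 0.35, 1.46, 0.48 and -0.66. Genes with this element therefore included both the highest and the lowest ratio of the 9 genes searched. A window for Klf10 was not used here.

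**Figure D3:**
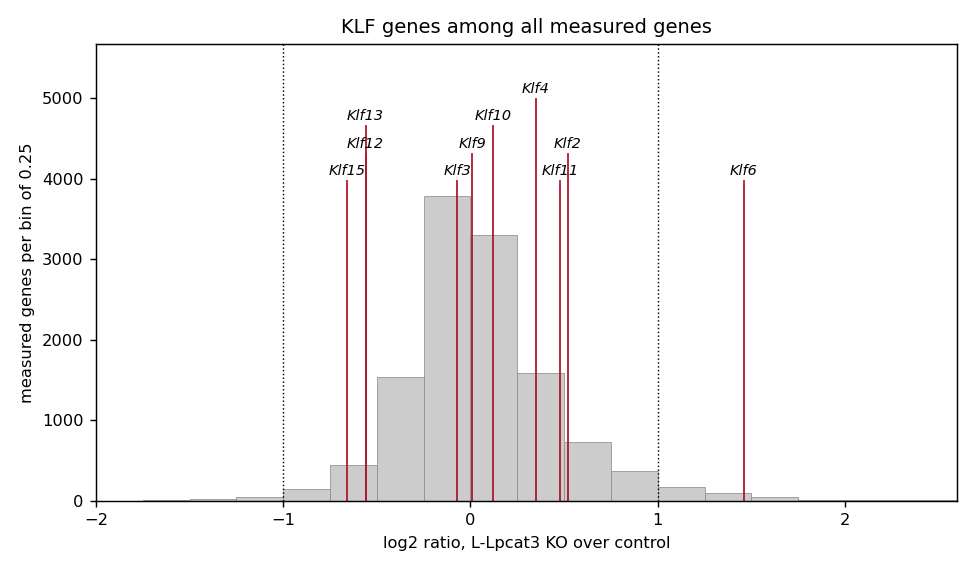
Distribution of the log2 ratio (L-Lpcat3 KO to control, x axis) over all 12320 measured genes, as genes per bin of 0.25 (grey bars), with the 10 KLF genes as red lines. Line height only separates the names, and dotted lines mark 2-fold. Klf6 at 1.46 lies in the right tail, and Klf15, Klf12 and Klf13 lie between -0.66 and -0.56 in the left one.

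None of the related zinc finger genes was called. Among the other KLF genes, 6 of 7 had a probe set, and their median log2 ratio was 0.07. Klf1, the erythroid KLF, was lowest of these (467 and 257, -0.86) and lay below Klf15. It was followed by Klf14 (168 and 117, -0.52). Klf16 was at 0.22 and Klf7 at 0.28, with 4 Klf7 probe sets from -0.30 to 0.68. Klf5 and Klf17 stayed at or near the floor. Of the Sp genes 6 were measured, with a median of 0.12: Sp1 was at 2205 and 2424 (0.14), Sp3 at 0.10, Sp5 at 0.23, Sp7 at 0.33 and Sp6 at -0.04. Sp4, below the floor in L-Lpcat3 KO liver, was at -0.06 or lower. On the probe sets that represent them, all 13 measured KLF cofactor genes lay between -0.14 (the acetyltransferase gene Kat2b) and 0.36 (Ctbp2), with a median of 0.02. Other probe sets for some of them lay further out, down to -0.83 for Kat2b, -0.61 for Rbbp4, -0.43 for Hdac2 and -0.39 for Crebbp and up to 0.85 for Sin3b. Ctbp1, which Klf3 and Klf12 bind, was at 2036 and 2095 (0.04), Sin3a and Sap30 at 0.17, Hdac3 at 0.20 and Rbbp7, the member of highest signal, at -0.04.

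Gene lists that share a known regulation with KLF members were set beside them. Over all measured genes, 2.69% were called higher and 0.698% lower. Of 18 measured immediate early genes, the class to which Klf6 is often counted, 4 were called higher: Egr1 (322 and 1611, 2.32), Jun (408 and 1759, 2.11), Fos (110 and 359, 1.70) and Myc (115 and 364, 1.66). Their list median was 0.47, and Jund, of highest signal, was at 2214 and 3205 (0.53). Of the 18 genes, 15 were above 0 and 3 below, Ier2 (-0.25), Junb (-0.21) and Zfp36 (-0.05). The control signals of Fos and Myc were near the floor, as was that of Klf6. The study displayed Jun from the same arrays, so its direction is not independent evidence. The probe sets for Jun ran from 1.38 to 2.11. In the TGF-beta list, which bears on Klf10 and Klf11, 1 of 14 measured genes was called, Ccn2 (307 and 912, 1.57). The median of that list was 0.29, with the ligand gene Tgfb1 at 0.62, the inhibitory Smad6 and Smad7 at 0.55 and 0.52, Pmepa1 at 0.53 and the receptor gene Tgfbr2 at 0.21.

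For Klf9 and Klf15, a list of 11 genes held glucocorticoid-induced genes and the receptor gene Nr3c1. None of the 11 was called and their median was -0.18. Nr3c1 was at -0.46, Tat at -0.43, Tsc22d3 at -0.42, the kinase gene Sgk1 at 0.83 and Errfi1, of highest signal, at -0.25. None of 9 genes of amino acid catabolism and gluconeogenesis linked to Klf15 was called either, with a median of -0.08. Proline dehydrogenase, Prodh, was at 7991 and 5629 (-0.51) and Tat, tyrosine aminotransferase, at 11579 and 8565 (-0.43), whereas Oat was at -0.26, Bcat2 at 0.10, Tdo2 at -0.10 and Pck1 at 0.02. Klf9, Klf10 and Klf15 are rhythmic in liver, and of 17 measured circadian genes Nr1d1 alone was called (95.4 and 230, 1.27, near the floor in control). Their median was -0.21, with Cry1 at 654 and 377 (-0.79) and Ciart at -0.58. Arntl, at 150 in control and below the floor in L-Lpcat3 KO liver, was at -0.79 or lower on one probe set and 0.44 on another. Nr1d2, of highest signal in that list, was at 0.03. Several KLFs regulate adipogenesis, and a link of the KLF values to the adipogenic genes was not tested. Of 8 measured adipogenic genes, 5 were called higher, against 2.69% of all measured genes. These were Cidea (3.64), Cidec (2.42), Fabp4 (1.73), Lpl and Pparg (both 1.17), and the list median was 1.17. The 3 measured Fabp4 probe sets ran from 0.11 to 1.73. Cebpb, of highest signal, was at 0.03. The study selected several of these from the same samples, which makes the count no independent evidence of direction.

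**Figure D4:**
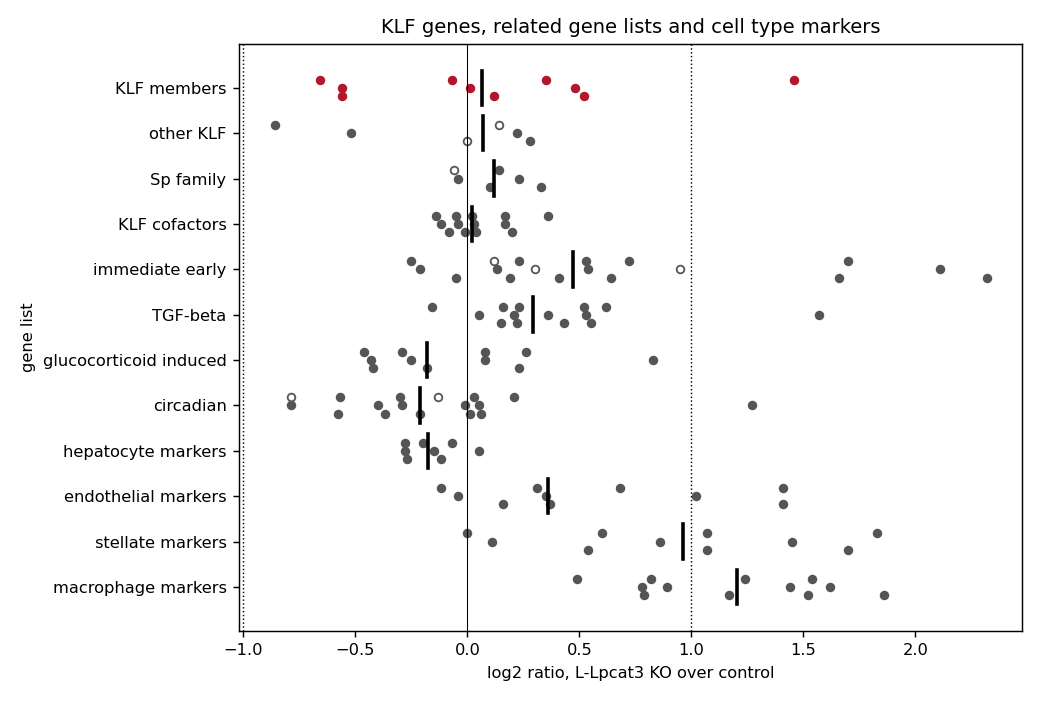
Log2 ratio (L-Lpcat3 KO to control, x axis) for each measured gene of 12 lists. Red points are the 10 KLF genes, grey points other genes, open points have 1 array below the floor, black bars give each list's median and dotted lines mark 2-fold. The median of the KLF genes is 0.07 and that of macrophage markers 1.21, and Klf6 at 1.46 is the one KLF point beyond 2-fold.

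Markers of cells other than hepatocytes moved in the same comparison as Klf6, and their part in the KLF values was not tested. Over all measured genes, 2.69% were called higher. All 12 Kupffer cell and macrophage markers were above 0 and 7 were called. Summed signals, here and below, add the deposited values without the floor. Those of these 12 markers were 15129 in the control pool and 33617 in the L-Lpcat3 KO pool, and the median log2 ratio was 1.21. The macrophage genes Adgre1 (509 and 946, 0.89) and Cd68 (326 and 883, 1.44) and the Kupffer cell gene Clec4f (1462 and 2048, 0.49) were among them. Of 10 stellate cell and myofibroblast markers 5 were called, with summed signals of 10663 and 18091 and a median of 0.96. Acta2 (1.70) and Tagln (1.83), of activated cells, were called. Lrat (1001 and 1522, 0.60), Des (0.11) and Reln (3201 and 3195), of stellate cells, were not. Of 10 liver endothelial markers, relevant to Klf2 and Klf4, 3 were called, Lyve1 (0.56 on its other probe set), Pecam1 and Vwf. The control signals of Pecam1 (96.8) and Vwf (163) were near the floor. The 10 markers had summed signals of 6592 and 8625 and a median of 0.36. Stab2 was at -0.04 and Cdh5 at 0.16.

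B cell and plasma cell markers were called higher in 5 of 5 measured genes, against 2.69% of all measured genes. They had summed signals of 898 and 4537 and a median of 1.94, although 3 had a control value below the floor. Ighm, the IgM heavy chain gene, was at 518 and 2975 (2.52, with probe sets from 1.03 to 2.58) and Jchain at 188 and 721 (1.94). The study displayed some macrophage and B cell markers from the same arrays, such as Marco and Ighm, so these counts are no independent evidence of direction. Of the T cell and NK cell markers 5 of 7 were below the floor on both arrays, among them Cd3d, Cd4 and Cd8a. The other two, Cd3e and Nkg7, were below it in control, with log2 ratios of at least 0.41 and 0.60 (summed signals 73.7 and 246). Neutrophil markers summed to 240 and 393 over 3 genes, all 3 with a control value below the floor. Their median was at least 0.33, and S100a8 was called. The 2 measured adipocyte markers summed to 103 and 533. Both had a control value below the floor, with log2 ratios of at least 1.86 for Adipoq and 1.33 for Retn. Of the cholangiocyte markers, Epcam (-0.09) and Sox9 (-0.12 or lower) summed to 239 and 216, and Krt7 and Krt19 were below the floor. Sox9 was below the floor in L-Lpcat3 KO liver. The hepatocyte markers summed to 265075 and 239182.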

How the data were processed

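Liver RNA of 5 male mice per genotype was pooled and hybridised to 1 Affymetrix mouse gene expression array each. The authors processed the arrays with MAS5 (no version given) and per the methods analysed them in GenespringGX. Deposited values are linear signal intensities, with a trimmed mean (2% left out at each end) of 500 on both arrays. The upper quartiles were 400 and 410. Global scaling takes most transcripts as equal, and intensities near background are noisiest. The number of arrays limits the precision.

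Gene symbols came from the platform annotation and were updated to RefSeq of GRCm38.p6. Of 45101 probe sets, 34958 had 1 symbol, 932 several (left out) and 9211 none. Of 18193 genes, 18032 matched the RefSeq table. KLF symbols were taken as annotated. Probe set types _a_at, _s_at and _x_at can match more than 1 transcript. The KLF members, 10 pathway lists and 9 marker lists were chosen with earlier results of these data known. The text names every KLF and Sp gene measured and, in other pathway lists, up to 4 members of largest ratio with that of highest signal. Marker lists are given by count and median with a few defining markers. Further list members were named for their known role or because they were called. With 2 arrays, genes cannot be ranked by likeness to a member. Promoter sequences are from RefSeq and 9 of 10 members matched. The calculation was tested on simulated data, with changes placed only in genes whose control signal was well above the floor. That test did not cover the lower control signals of Klf2, Klf4 and Klf6. Alternatives were median centring, quantile normalization, loess, other floors, no floor, a pseudocount, averaging of probe sets, dropping those of these 3 types, and thresholds of 1.5-fold and 3-fold. Python 3.11.15, numpy 2.4.6, pandas 2.3.3, statsmodels 0.14.6 and matplotlib 3.10.9 were used.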

Additional observations from a re-analysis of the deposited data

How the results depend on the processing

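Of 88 log2 ratios of single KLF genes under the alternatives, 85 moved by less than 0.29, the SD between probe sets for the same gene, and none of a called gene changed sign. The 3 others were Klf6 with a floor at the 75th percentile (0.11) and with the mean of probe sets (1.12), and Klf12 with that mean (-0.19). Klf3 and Klf9 changed sign under 1 alternative each. With a floor at the 75th percentile, 0 KLF genes and 0 KLF probe sets were called higher, since the control values of all Klf6 probe sets were raised to that floor. Klf2 and Klf4 were below it on both arrays, which left 8 of the 10 genes measured. At a threshold of 3-fold, 0 genes and 0 probe sets were higher. Without a floor, 5 probe sets were higher, with signals under the floor included. At 1.5-fold, 1 of the 10 genes and 1 of their probe sets were lower, those of Klf15. Over all genes, 332 were higher and 86 lower, which became 1133 and 479 with a floor at the 25th percentile and 88 and 25 at the 75th. They became 2230 and 1183 without a floor, 892 and 350 with a pseudocount, 1117 and 471 at 1.5-fold, and 55 and 11 at 3-fold. No paired analysis was possible because each genotype was 1 pool. No replicate could be left out for the same reason. Low signal limits Klf2, Klf4 and Klf6, whose control values were below the 75th percentile of 405.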
